A study of Homo sapiens with 4 samples.

Results

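The imprinted growth genes H19, CDKN1C, PHLDA2, PEG10, SGCE, MEST, MEG3 and GRB10 were followed from human embryonic stem cells into blastoids and across the cells of the blastoids. The members were taken by name, and all 8 were among the 23364 genes listed in at least 1 of 4 single-cell count tables. MEG3 was missing from the table of hESC 1. The stem cells (hESC 1 and hESC 2) were of the human embryonic line KhES1, grown on Matrigel in mTeSR-1 medium. The blastoids (blastoid 3 and blastoid 4) were aggregates of KhES1 cells embedded in a hydrogel and cultured in iBlastoid medium, as models of the blastocyst, so both groups share 1 genotype and 1 cell line. The titles give day 0 for all 4 samples, while the tables of blastoids 3 and 4 carry day 9 in their names, so the descriptions decided the groups. The labels do not say whether the samples of a group were separate cultures, so p-values measure only the spread between these samples, which may be technical.

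An imprinted gene is read mainly from the copy inherited from 1 parent, because a nearby control region carries DNA methylation on only 1 of the 2 parental copies. As a rule of thumb, genes read from the father's copy promote growth of the embryo and placenta and genes read from the mother's copy restrain it. H19 (a noncoding RNA), CDKN1C (the cyclin-dependent kinase inhibitor p57), PHLDA2 (a small protein that restrains placental growth) and MEG3 (a noncoding RNA) are read from the mother's copy, and PEG10 (a protein derived from a retrotransposon and needed for the placenta), SGCE (epsilon-sarcoglycan, a membrane protein) and MEST (a protein of the hydrolase fold) from the father's. GRB10, an adaptor that restrains insulin and IGF receptor signalling, is read from different copies in different tissues. The counts do not tell the 2 parental copies apart, so all values below are totals over both.

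The members lie in 6 imprinted regions of GRCh38 (GENCODE v29). H19 (chr11:1995176-2001470, minus strand) lies 157 kb from the start of IGF2, and CDKN1C (chr11:2883213-2885773, minus) and PHLDA2 (chr11:2928273-2929455, minus) lie 43.7 kb apart by their starts, further along the same arm. PEG10 (chr7:94656325-94669695, plus) and SGCE (chr7:94524204-94656572, minus) run away from each other from a shared start region in which their annotations overlap by 248 bases. MEST (chr7:130486171-130506465, plus) and GRB10 (chr7:50590063-50793462, minus) lie elsewhere on chromosome 7. MEG3 (chr14:100779410-100861031, plus) starts 53.7 kb from the start of DLK1 in this annotation. The RefSeq starts of MEG3, used for its promoter below, lie inside that MEG3 interval and so further from DLK1. The strand used in counting is not given in the sources used here. Whether reads from overlapping genes on opposite strands (PEG10 and SGCE, SGCE and CASD1, MEST and COPG2, MEST and MESTIT1) were told apart is thus not known. AL117190.1, a noncoding RNA gene on the same strand as MEG3, overlaps the MEG3 annotation by 24763 bases and is in no count table. How reads of that stretch were counted is not known either.

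RefSeq promoter sequences (GRCh38.p14) were matched for 4 of the 8 members, H19, MEST, MEG3 and GRB10, but not for CDKN1C, PHLDA2, PEG10 and SGCE. The 250 bases before the first listed start of each are shown because these 4 genes took different courses in the blastoids, and because methylation of CpG sites is the mark that imprinting uses. CpG sites are in capitals.
H19, chr11:2001267-2001516, minus strand: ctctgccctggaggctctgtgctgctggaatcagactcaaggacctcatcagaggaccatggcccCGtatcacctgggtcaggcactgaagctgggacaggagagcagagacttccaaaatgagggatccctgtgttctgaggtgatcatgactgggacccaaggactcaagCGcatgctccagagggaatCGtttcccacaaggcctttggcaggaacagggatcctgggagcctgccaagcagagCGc
MEST, chr7:130485925-130486174, plus strand: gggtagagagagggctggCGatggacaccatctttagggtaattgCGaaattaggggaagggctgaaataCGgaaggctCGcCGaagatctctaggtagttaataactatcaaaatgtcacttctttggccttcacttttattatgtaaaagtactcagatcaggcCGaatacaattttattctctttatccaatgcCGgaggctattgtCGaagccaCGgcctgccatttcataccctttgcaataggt
MEG3, chr14:100825858-100826107, plus strand: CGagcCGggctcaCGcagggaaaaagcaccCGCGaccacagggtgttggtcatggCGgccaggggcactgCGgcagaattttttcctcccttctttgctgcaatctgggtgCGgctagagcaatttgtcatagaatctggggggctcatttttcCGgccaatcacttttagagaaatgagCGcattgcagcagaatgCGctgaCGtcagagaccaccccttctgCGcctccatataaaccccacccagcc
GRB10, chr7:50793454-50793703, minus strand: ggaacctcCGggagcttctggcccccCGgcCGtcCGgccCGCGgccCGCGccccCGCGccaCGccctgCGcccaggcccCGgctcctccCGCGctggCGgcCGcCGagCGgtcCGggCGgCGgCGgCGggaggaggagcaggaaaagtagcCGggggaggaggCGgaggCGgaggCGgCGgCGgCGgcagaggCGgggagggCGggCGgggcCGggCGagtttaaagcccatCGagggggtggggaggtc

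These windows held 4 CpG sites in H19, 9 in MEST, 13 in MEG3 and 37 in GRB10, against a median of 11 over the same window of 35116 promoters. GRB10 stood above most promoters, with 96.7% of them at or below its number, and H19 below most, with 34.3% at or below. Other listed starts of the same genes differed: the 5 of GRB10 had 37, 40, 19, 2 and 3 CpG sites and the 5 of MEST from 9 to 20. The TATA box letters TATAAA, searched on both strands, were present in the MEG3 window only of these 4, and in 10.7% of all promoters. The letters TGCCGC, which the imprint-keeping protein ZFP57 is known to recognise when methylated, were found on either strand in the MEG3 and GRB10 windows and in 12.7% of all promoters. A match of letters is a description and not a site of binding.

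H19 and MEST also carry a microRNA inside the gene on the same strand. They are shown because the rise of a host gene raises the question of its microRNA, which these libraries of polyadenylated RNA do not measure. The seed (bases 2 to 8) is in capitals, and no seed is shared among the 4 mature forms.
hsa-miR-675-5p, in H19, chr11:1996800-1996822: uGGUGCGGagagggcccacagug
hsa-miR-675-3p, in H19, chr11:1996768-1996787: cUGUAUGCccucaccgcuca
hsa-miR-335-5p, in MEST, chr7:130496126-130496148: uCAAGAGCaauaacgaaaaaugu
hsa-miR-335-3p, in MEST, chr7:130496162-130496183: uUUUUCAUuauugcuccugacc

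Cells with at least 500 genes and no doublet call numbered 2238, 3172, 2278 and 1916 in hESC 1, hESC 2, blastoid 3 and blastoid 4, with 13255214, 15882115, 15106405 and 17679447 unique molecular identifiers (UMIs, tags that count each molecule once). Median depth was 5769, 4994.5, 6207 and 8798 UMIs per cell. The 2 blastoid samples shared 1035 cell barcodes and the 2 hESC samples 1317. Of the 1198 barcodes of blastoid 3 with fewer than 500 genes, 1010 had the same barcode as a cell kept in blastoid 4, while no barcode was kept in both blastoid samples. By fixed markers, 93.1% and 91.7% of the kept cells of hESC 1 and hESC 2 were pluripotent-like. Blastoids 3 and 4 held 77.0% and 60.5% mesoderm/mesenchyme-like, 18.0% and 33.0% trophectoderm/amnion-like and 4.74% and 5.79% pluripotent-like cells. No cluster was named hypoblast-like, so a blastocyst's hypoblast was not represented by a cluster, and the outer epithelial class carried amnion genes (GABRP, VTCN1) among its leading genes.

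Blastoids differed from stem cells in 6 of the 8 genes. H19, CDKN1C, PHLDA2, PEG10 and MEST rose and GRB10 fell, SGCE did not pass the test, and MEG3 had too few UMIs to be tested. The test was edgeR's quasi-likelihood test on UMIs summed per sample over all kept cells, and a gene was called at a Benjamini-Hochberg adjusted p under 0.05. Differences between the groups were widespread: 49.9% of the 16331 genes tested were called, 27.1% higher and 22.8% lower in blastoids. The 6 members called of 7 tested, 5 of them higher, are to be read against those shares. The median log2 fold change was 1.42 over the 7 tested members and 0.05 over all genes tested.

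**Figure D1:**
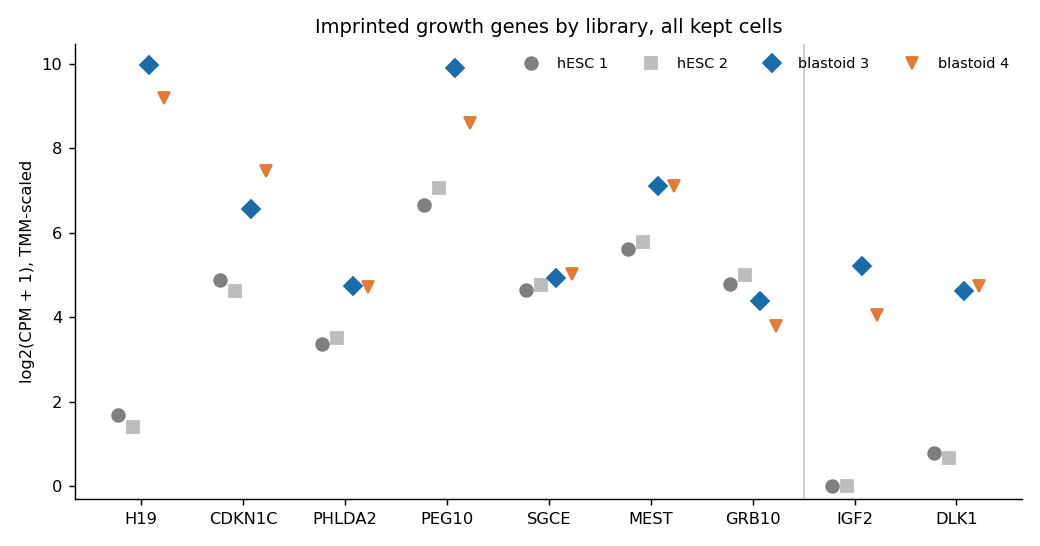
Level of 7 members, and of IGF2 and DLK1 to the right of the line, in each library over all kept cells, as log2 of TMM-scaled counts per 1000000 UMIs (CPM) plus 1; each point is 1 library. The blastoid points of H19 lie at 1000 and 584 CPM against 2.24 and 1.63 in the stem cells, and those of GRB10 lie below both stem cell points.

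H19 moved most among the members. Its level, in TMM-scaled CPM, was 2.24 in hESC 1 and 1.63 in hESC 2, and 1000.1 in blastoid 3 and 583.8 in blastoid 4. Stem cells were thus near 0 and both blastoid samples high, with no overlap. The log2 fold change was 8.69 ± 0.38 (SE), a 413-fold rise (edgeR adjusted p = 1.13e-05, 2 samples per group). After each cell was thinned to 2000 UMIs, H19 was seen in 0.444% and 0.364% of stem cells and in 69.2% and 55.3% of blastoid cells. Within the blastoids the share was 14.1% and 9.35% in pluripotent-like cells at the same thinned depth. Barcodes with fewer than 500 genes held H19 at 682 and 746 CPM in blastoids 3 and 4. Of the 1198 such barcodes of blastoid 3, 1010 were the same as a barcode kept in blastoid 4. A share of cells with an H19 UMI need not be a share of cells that express it. The part of free RNA, or of RNA counted from the other library, in these shares was not tested. IGF2, the growth factor gene that shares H19's control region and is read from the other parental copy, had no UMI in either hESC sum and was at 36.0 and 15.5 CPM in blastoids 3 and 4. Its level was at least 78.2-fold higher in blastoids, a bound computed from the exact 95% upper limit of the 2 UMIs that each hESC table may have dropped, and its edgeR adjusted p was 0.000378. Both genes were higher in blastoid 3 than in blastoid 4.

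CDKN1C binds cyclin and CDK complexes and holds cells out of the cell cycle. It was at 28.6 and 23.5 CPM in the stem cells and at 92.7 and 174 CPM in blastoids 3 and 4, here with the higher value in blastoid 4. The log2 fold change was 2.36 ± 0.29 (edgeR adjusted p = 0.000685). PHLDA2 was at 9.37 and 10.3 CPM in the stem cells and at 25.7 and 25.3 CPM in blastoids 3 and 4, so the blastoid samples were close to each other and apart from the stem cells. Its log2 fold change was 1.37 ± 0.15 (edgeR adjusted p = 0.000404). GRB10 went the other way, from 26.5 and 30.8 CPM in hESC 1 and hESC 2 to 19.8 and 12.8 CPM in blastoids 3 and 4. The groups did not overlap, and the log2 fold change was -0.82 ± 0.22 (edgeR adjusted p = 0.0181). This call was lost without hESC 2 (log2 fold change -0.71, edgeR adjusted p = 0.0922).

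Along the arm of chromosome 11 that carries H19, IGF2, CDKN1C and PHLDA2, genes of both parental copies rose. KCNQ1, a potassium channel gene, was the only tested gene of the imprinted lists there with a value below 0, at -0.60 ± 0.40, and was not called (edgeR adjusted p = 0.243). KCNQ1OT1, the noncoding RNA read from the father's copy whose transcription is known to keep CDKN1C silent on that copy, went from 119 and 122 CPM in the stem cells to 258 and 240 CPM in blastoids 3 and 4 (log2 fold change 1.05 ± 0.12, edgeR adjusted p = 0.000537). SLC22A18, a transporter gene between CDKN1C and PHLDA2, rose by 1.52 ± 0.32 on the log2 scale (edgeR adjusted p = 0.00695). NAP1L4, 62.9 kb from PHLDA2 by their starts, had a log2 fold change of 0.05 ± 0.15 and was not called (edgeR adjusted p = 0.791). These neighbours belong to the list of other imprinted genes and were singled out for their place after their values had been seen.

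**Figure D2:**
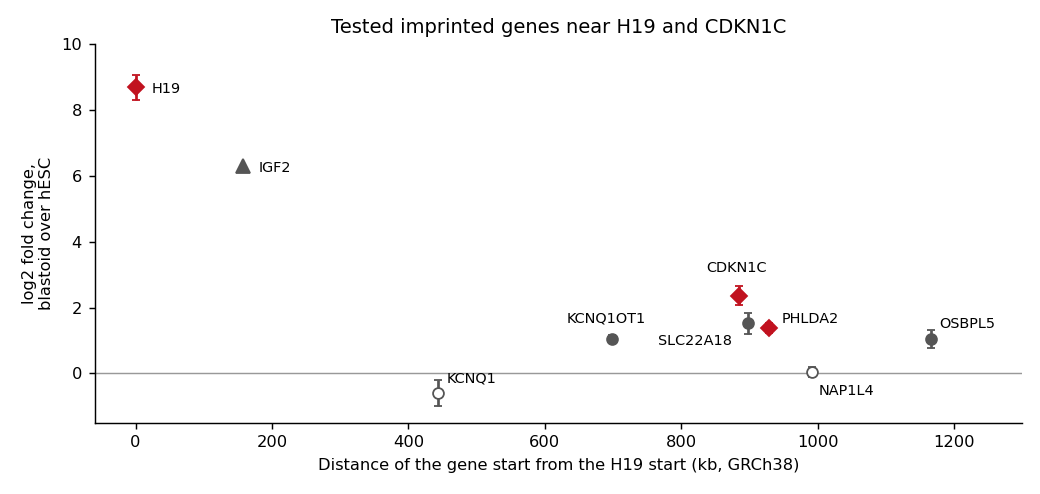
Log2 fold change, blastoid over hESC, of each tested imprinted gene against the distance of its start from the start of H19 in kb; diamonds are members, circles other listed genes, bars standard errors, open symbols not called, and the triangle of IGF2 is a lower bound. H19 and IGF2 lie at 8.69 and at least 6.29, KCNQ1 lies at -0.60, and the genes from KCNQ1OT1 to OSBPL5 lie between 0.05 and 2.36.

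PEG10 and SGCE start 247 bases apart and are read from the same parental copy, but their totals parted. PEG10 was at 99.4 and 133 CPM in the stem cells and at 957 and 388 CPM in blastoids 3 and 4. Both blastoid samples were above both stem cell samples, with blastoid 3 at 2.47 times the level of blastoid 4. The log2 fold change was 2.53 ± 0.40 (edgeR adjusted p = 0.00193), and it was 1.74 without blastoid 3 and 3.01 without blastoid 4. SGCE was at 23.8 and 26.3 CPM in hESC 1 and hESC 2 and at 29.3 and 31.5 CPM in blastoids 3 and 4. The groups did not overlap, but the log2 fold change of 0.28 ± 0.14 did not pass the test (edgeR adjusted p = 0.134). Without blastoid 3 the SGCE value was 0.34 and passed (edgeR adjusted p = 0.0347). The difference between the changes of the 2 genes was not tested.

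MEST was at 48.0 and 54.0 CPM in the stem cells and at 136 and 137 CPM in blastoids 3 and 4, a rise of 1.42 ± 0.13 on the log2 scale (edgeR adjusted p = 0.000172). COPG2, which overlaps the end of MEST by 228 bases on the other strand, had a log2 fold change of -0.26 ± 0.15 and was not called (edgeR adjusted p = 0.194). MEG3 had few counted UMIs in every sample. It had 0 UMIs in hESC 1, where the table does not list it, 3 in hESC 2, 6 in blastoid 3 and 1 in blastoid 4, and at this depth no difference was detectable. DLK1, the father's-copy gene of the same region, which encodes a membrane protein related to Notch ligands, rose by 5.23 ± 0.23 on the log2 scale (edgeR adjusted p = 1.13e-05). Its level went from 0.721 and 0.585 CPM to 23.7 and 25.6 CPM in blastoids 3 and 4. The same region thus held a gene that rose and one that was counted at a few UMIs. AL117190.1 overlaps MEG3 on the same strand up to the annotated end of MEG3. How reads of that stretch were counted is not known, so the low count of MEG3 need not be a low level. DIO3, a thyroid hormone deiodinase gene at the far end of that region, had no UMI in the stem cell sums and was at 7.02 and 9.84 CPM in blastoids 3 and 4, at least 25.7-fold higher.

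After thinning to 2000 UMIs, 6 of the 8 members were detected more often in each blastoid sample than in either hESC sample. The exceptions were MEG3 and GRB10. GRB10 was seen less often, in 4.15% and 2.67% against 5.55% and 5.55% of cells. The share of all genes with such a separation was not counted, so the 6 of 8 does not set the members apart from other genes. For PEG10 the shares were 16.2% and 22.1% of stem cells and 73.9% and 43.8% of the cells of blastoids 3 and 4. For CDKN1C they were 5.38% and 4.05%, against 12.7% and 20.4%. For MEST they were 8.32% and 9.82%, against 22.5% and 23.5%. PHLDA2 was seen in few cells everywhere, 2.05% and 1.68% against 3.55% and 3.15%. With 2 samples per group an exact two-sided permutation test cannot go below p = 0.333, so none was run on these shares.

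Within the blastoids the members did not follow 1 pattern. The comparison of cell classes is a description, in CPM of the total UMIs of a class in a library, because the classes were made from the same cells. H19, MEST and GRB10 were higher in mesoderm/mesenchyme-like than in trophectoderm/amnion-like cells in both blastoid samples, as was MEG3 on 6 UMIs or fewer per library. CDKN1C, PHLDA2, SGCE and PEG10 were lower there in both, but in blastoid 4 PEG10 stood at 401 and 402 CPM in the 2 classes. With cells classed by their own marker UMIs, H19, MEST and GRB10 were higher in the mesoderm/mesenchyme-like class of both samples and MEG3 was not, and PEG10 in blastoid 4 turned, to 411 CPM in mesoderm/mesenchyme-like and 382 CPM in trophectoderm/amnion-like cells.

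**Figure D3:**
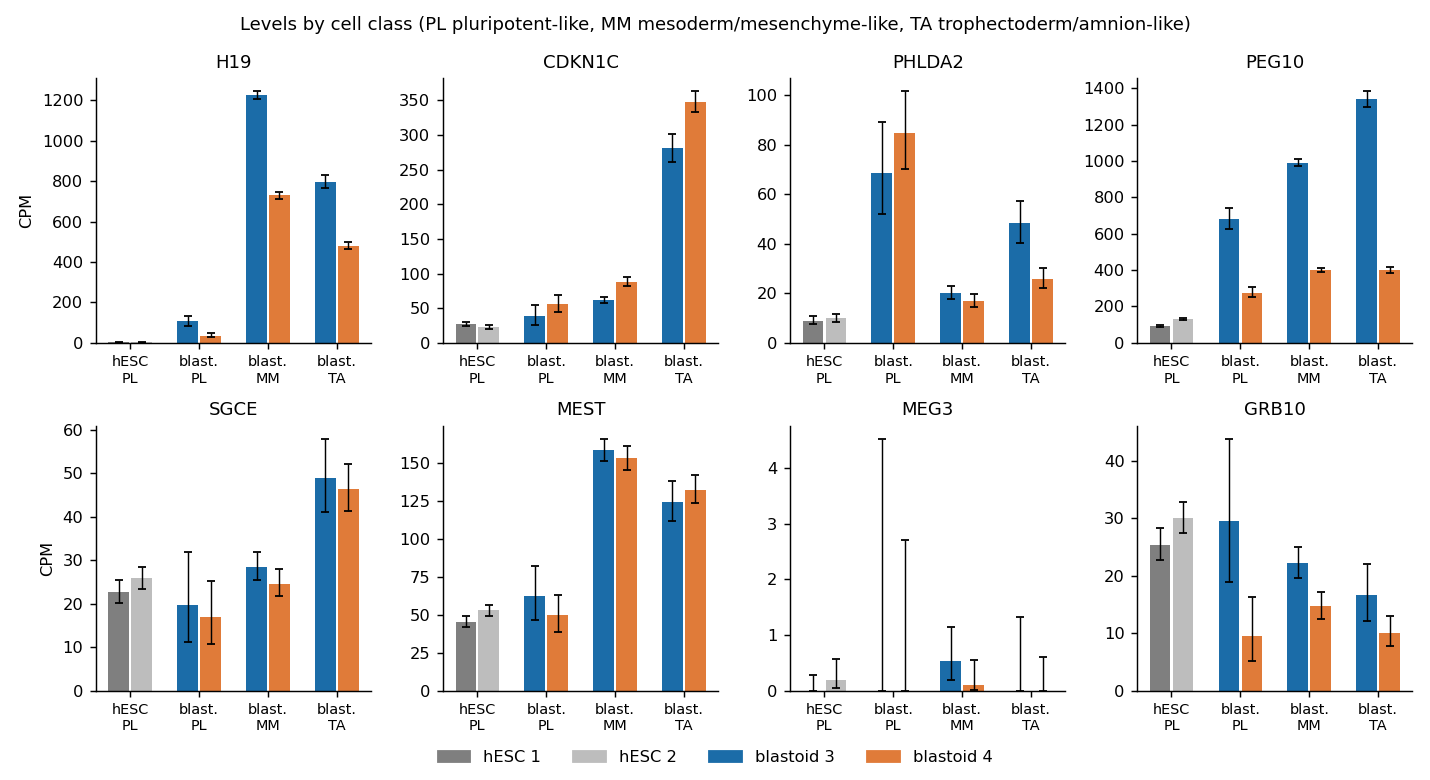
CPM of each member in the pluripotent-like (PL), mesoderm/mesenchyme-like (MM) and trophectoderm/amnion-like (TA) cells of each library; bars are 1 library each and lines exact 95% Poisson intervals, which cover counting error only. CDKN1C stands at 281 and 348 CPM in TA cells and PHLDA2 is highest in the PL cells of blastoids, at 68.7 and 84.8 CPM.

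CDKN1C differed most of the tested members between trophectoderm/amnion-like and mesoderm/mesenchyme-like cells. It was at 281 CPM in trophectoderm/amnion-like and 61.7 CPM in mesoderm/mesenchyme-like cells of blastoid 3, and at 348 and 88.4 CPM in those of blastoid 4. The ratio of mesoderm/mesenchyme-like to trophectoderm/amnion-like levels was 0.220 and 0.254. SGCE was also higher in trophectoderm/amnion-like cells, at 48.9 and 46.4 CPM, than in mesoderm/mesenchyme-like cells, at 28.5 and 24.6 CPM. H19 ran the other way, with 1226 and 730 CPM in mesoderm/mesenchyme-like and 798 and 480 CPM in trophectoderm/amnion-like cells. GRB10 was at 22.1 and 14.6 CPM in mesoderm/mesenchyme-like and at 16.6 and 10.0 CPM in trophectoderm/amnion-like cells, and within each library the counting intervals of the 2 classes overlapped. PEG10, H19 and GRB10 were higher in blastoid 3 than in blastoid 4 in all 3 classes. For PEG10 the ratio of the libraries was 2.46, 2.47 and 3.34 in pluripotent-like, mesoderm/mesenchyme-like and trophectoderm/amnion-like cells. The gap between the libraries was thus present within each class. CDKN1C was lower in blastoid 3 than in blastoid 4 in all 3 classes, with ratios from 0.684 to 0.806.

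Clusters, found with the members and the other listed imprinted genes left out, divided the mesoderm/mesenchyme-like class further. The cluster led by CXCL14 and POSTN (337 and 127 cells of blastoids 3 and 4) had the highest H19, PEG10 and IGF2. There H19 was at 2418 and 1690 CPM, PEG10 at 1914 and 628 CPM, and IGF2 at 106 and 57.4 CPM. The cluster led by MESP1 and MSGN1, genes of nascent mesoderm (199 and 39 cells), had the lowest H19 of the mesoderm/mesenchyme-like clusters, at 343 and 213 CPM, with IGF2 at 4.49 and 0 CPM. That same cluster had the highest MEST, at 432 and 352 CPM, and the highest DLK1, at 80.6 and 72.7 CPM. Of the 6 MEG3 UMIs of blastoid 3, 5 lay in 4 cells of this cluster, and the 1 MEG3 UMI of blastoid 4 lay there too. PHLDA2, at 55.5 and 44.5 CPM, was also higher there than in the other mesoderm/mesenchyme-like clusters, which lay between 12.6 and 20.9 CPM.

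**Figure D4:**
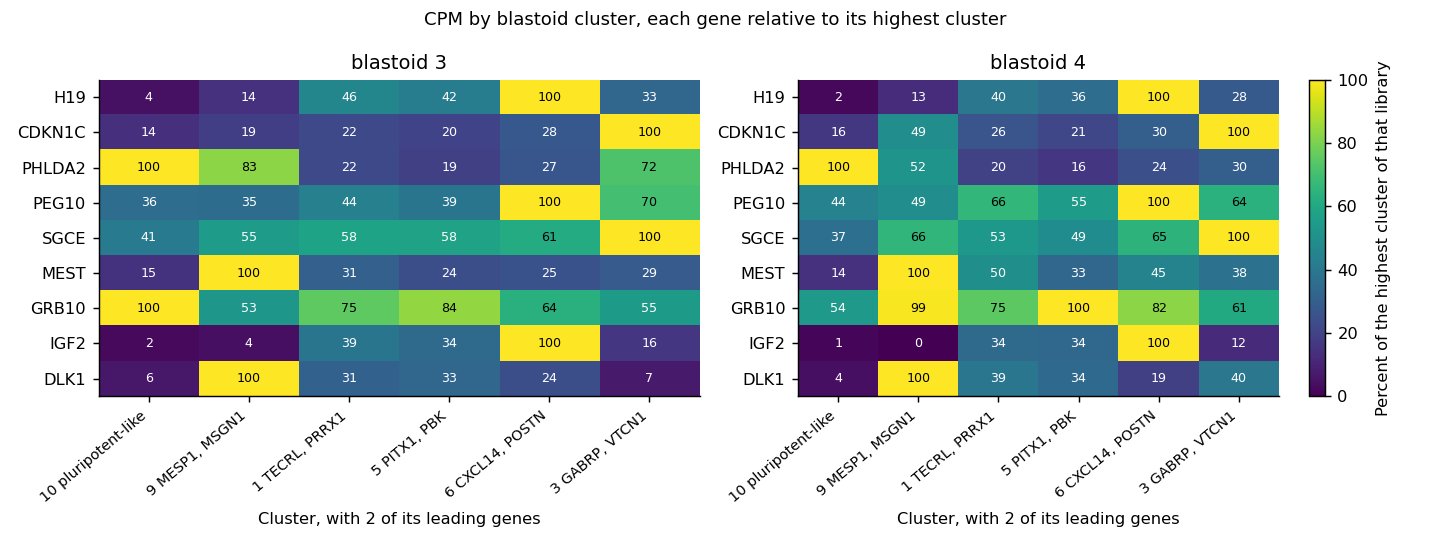
CPM of 7 members, IGF2 and DLK1 in the 6 blastoid clusters with at least 30 cells in both libraries, each gene given as a percent of its highest cluster in that library; columns carry the cluster number and 2 of its leading genes. H19 and IGF2 peak in cluster 6, MEST and DLK1 in cluster 9, CDKN1C and SGCE in cluster 3 and PHLDA2 in cluster 10, in both libraries.

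The trophectoderm/amnion-like cells were not uniform either. At the finer resolution of 1.0 they split into 3 clusters, 1 led by PAPPA2 and IGFBP7 (196 and 445 cells), 1 led by PLA2G2A and TAC3 (187 and 155 cells) and 1 led by CGA and CYP19A1 (53 and 47 cells), genes of hormone-making trophoblast. The last had the highest CDKN1C, at 859 and 853 CPM, against 221 and 341 CPM in the first and 93.8 and 160 CPM in the second. It also had the highest PEG10, at 3488 and 1762 CPM, against 452 and 192 CPM in the first and 1377 and 517 CPM in the second. PHLDA2 was at 161 and 91.1 CPM there, against 27.9 and 18.4 CPM in the first. H19 was lowest there in blastoid 3, at 458 CPM, and at 414 CPM in blastoid 4 was within counting error of the first cluster's 423 CPM. CGA itself was at 732 CPM in blastoid 3 and only 18.6 CPM in blastoid 4 in this cluster, so the cells of the 2 libraries were not alike in it.

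The cell-to-cell spread of the members was also described. In mesoderm/mesenchyme-like cells thinned to 2000 UMIs, the variance of the UMIs per cell divided by their mean, which is 1 for pure counting, was 5.51 and 1.87 for PEG10 and 3.81 and 2.61 for H19 in blastoids 3 and 4. For CDKN1C it was 1.05 and 1.34 in that class but 2.71 and 3.65 in trophectoderm/amnion-like cells. PEG10 reached 7.49 and 4.79 there. This ratio rises with the mean where cells differ, so it does not rank the members by spread. In mesoderm/mesenchyme-like cells the mean UMIs per cell were 2.53 and 1.53 for H19, 2.04 and 0.80 for PEG10 and 0.11 and 0.17 for CDKN1C. CDKN1C, an inhibitor of the cell cycle, was also compared between cells with and without a UMI of the proliferation genes MKI67, TOP2A or CENPF. In mesoderm/mesenchyme-like cells it was seen in 9.82% of cells with and 11.6% without such a UMI in blastoid 3, and in 13.2% and 18.3% in blastoid 4. In trophectoderm/amnion-like cells the shares were 22.4% and 27.3% in blastoid 3, and 28.8% and 35.0% in blastoid 4. The share was lower in cells with a proliferation UMI in all 4 of these comparisons, but the exact 95% intervals overlapped in each. In pluripotent-like stem cells the shares were 5.40% with and 5.45% without in hESC 1, and 4.30% and 2.42% in hESC 2.

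The pluripotent-like cells that blastoids still held (108 in blastoid 3 and 111 in blastoid 4) were compared with those of the stem cell cultures, to ask which members differed in cells of the same class. Different clusters held most of that class in the 2 groups: clusters 0, 4 and 8 held hESC cells only, cluster 10 held 86 and 104 cells of blastoids 3 and 4 and no hESC cell, and the shallow cluster 2 held 22 and 7 blastoid cells beside 289 and 742 hESC cells. In cluster 10, 9 pluripotent and 7 of 11 trophectoderm/amnion markers were detected in at least 10% of cells. At resolution 1.0 the pluripotent-like cluster of blastoids was smaller, with 62 and 89 cells of blastoids 3 and 4. Only 2 trophectoderm/amnion markers reached that share in it. The class at the main setting may thus hold some cells of another class. H19, PHLDA2, PEG10 and CDKN1C rose and none fell. Of 14017 genes tested, 24.6% were called, 13.2% higher and 11.4% lower. The members called were 4 of the 7 tested, all 4 higher. PHLDA2 had a larger log2 fold change here than over all cells. Its level was 9.43 and 10.1 CPM in stem cells and 64.4 and 85.9 CPM in the pluripotent-like cells of blastoids 3 and 4 (log2 fold change 2.97 ± 0.19, edgeR adjusted p = 1.59e-09). H19 rose by 5.13 ± 0.38 on the log2 scale (edgeR adjusted p = 1.16e-08), from 2.10 and 1.56 to 100.1 and 36.3 CPM, and by 4.33 without blastoid 3 and 5.75 without blastoid 4. PEG10 rose by 1.98 ± 0.25 on the log2 scale (edgeR adjusted p = 1.26e-05), from 98.9 and 131 to 638 and 280 CPM, and by 1.29 without blastoid 3. CDKN1C rose by 0.90 ± 0.21 on the log2 scale (edgeR adjusted p = 0.0043), from 28.2 and 23.0 to 35.7 and 56.3 CPM. This CDKN1C call was lost at resolution 1.0 (0.40, edgeR adjusted p = 0.225), without blastoid 4 (0.45, edgeR adjusted p = 0.319) and without hESC 2 (0.73, edgeR adjusted p = 0.113).

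**Figure D5:**
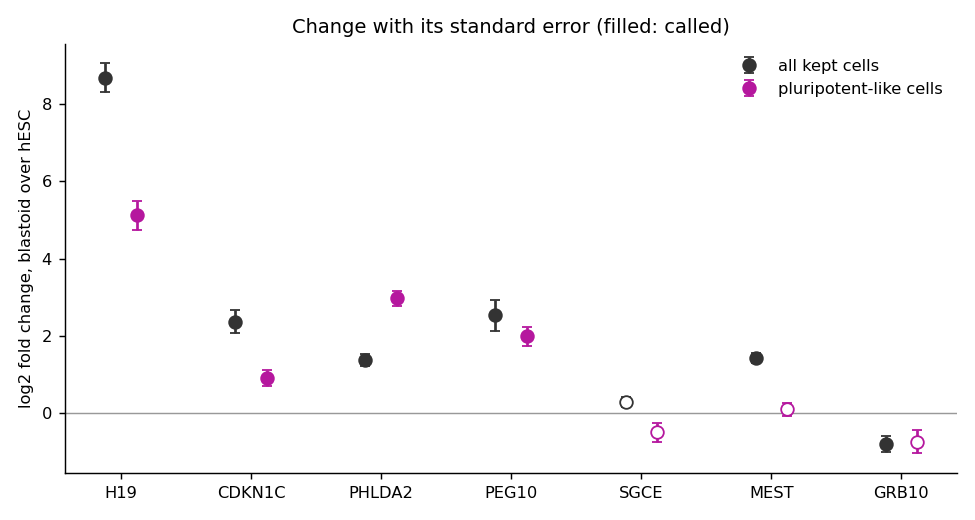
Log2 fold change, blastoid over hESC, of the 7 tested members over all kept cells (dark) and over pluripotent-like cells (magenta), with standard errors; filled points were called. H19 goes from 8.69 over all cells to 5.13 in pluripotent-like cells, PHLDA2 from 1.37 to 2.97 and MEST from 1.42 to 0.08.

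MEST, which rose in the whole sample, had a log2 fold change of 0.08 ± 0.18 in pluripotent-like cells (edgeR adjusted p = 0.769). SGCE stood at -0.51 ± 0.24 (edgeR adjusted p = 0.129) and GRB10 at -0.76 ± 0.30 (edgeR adjusted p = 0.0729), and neither was called. GRB10 was at 27.6 CPM in blastoid 3, within the range of the stem cells (26.7 and 30.3), and at 9.62 CPM in blastoid 4. Without blastoid 3 it was called, at -1.56 (edgeR adjusted p = 0.00024). KCNQ1OT1, which rose over all cells, fell by 0.62 ± 0.16 on the log2 scale in pluripotent-like cells (edgeR adjusted p = 0.00875). The difference between the changes over all cells and over pluripotent-like cells was not tested.

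Markers of the other classes were also higher in the pluripotent-like cells of blastoids than in those of the stem cell cultures. Whether they came from RNA of other cells, from cells of another class grouped with them or from the cells' own expression was not tested. All 11 mesoderm/mesenchyme markers in blastoid 3 and 10 of 11 in blastoid 4 (FOXF1 at 0) had a UMI among the pluripotent-like cells, with a summed level of 276 and 137 CPM against 70.9 and 74.3 CPM in the stem cells, where COL3A1, LUM, DCN, PITX1 and FOXF1 were at 0 in both samples. That was 6.25% and 3.57% of the level in each library's own mesoderm/mesenchyme-like cells. The trophectoderm/amnion markers summed to 368 and 241 CPM, 22.5% and 14.4% of their own class, against 29.6 and 25.5 CPM in the stem cells. H19 in the pluripotent-like cells of blastoids was at 8.70% and 4.91% of its mesoderm/mesenchyme-like level and at 13.4% and 7.46% of its trophectoderm/amnion-like level. The part of RNA from other cells in its rise was not tested. PEG10 was at 68.6% and 68.9% of its mesoderm/mesenchyme-like level, and at 50.7% and 68.8% of its trophectoderm/amnion-like level. CDKN1C was at 61.6% and 62.9% of its mesoderm/mesenchyme-like level and at 13.5% and 15.9% of its trophectoderm/amnion-like level. The part of RNA from other cells in the rise of PEG10 and CDKN1C was not tested either. PHLDA2 was higher in the pluripotent-like cells than in either other class of the same library.

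Among the other imprinted genes, the share called was near that of all genes, and most of the called genes rose. Of 49 listed genes, 43 were in the tables, 34 were tested and 19 were called, 15 higher and 4 lower (TFPI2, PPP1R9A, SNRPN and SNURF), where 49.9% of all genes tested were called, 27.1% higher and 22.8% lower. Without hESC 1, and likewise without hESC 2, fewer were called, as was so over all genes. The median of their log2 fold changes was 0.34, also with the 5 genes that had no hESC UMI at their bounds, against 0.05 over all genes. PLAGL1, a zinc finger factor known to act on a network of imprinted genes, rose by 4.38 ± 0.31 on the log2 scale (edgeR adjusted p = 5.49e-05), from 0.962 and 0.845 to 22.6 and 15.2 CPM. SNRPN, a splicing protein gene of the Prader-Willi region, fell by 1.93 ± 0.20 on the log2 scale (edgeR adjusted p = 0.000282), from 610 and 616 to 130 and 191 CPM. SNURF shares its transcript with SNRPN, so the 2 counts are not independent. In pluripotent-like cells 8 of the 30 other imprinted genes tested were called, 4 higher and 4 lower, near the 24.6% of all genes called there. IGF2AS, INS, MEG9, MKRN3, PEG3 and ZIM2 were not analysed here.

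Partners and relatives of the members gave a mixed picture. Of 42 listed genes, 40 were in the tables, 36 were tested and 19 were called, 11 higher and 8 lower. That share was near the 49.9% of all genes called. Fewer were called without hESC 1, as was so over all genes. The median of their log2 fold changes was 0.04. Of the 11 tested genes of the CDKN1C family and its targets, 5 rose and 1 fell, again near the share of all genes called. CDK6, a kinase of the G1 phase, rose by 1.80 ± 0.17 on the log2 scale (edgeR adjusted p = 0.000205), and CCND3, its cyclin partner, by 1.36 ± 0.21 (edgeR adjusted p = 0.00186). CDKN1A, the related inhibitor p21, fell by 0.51 ± 0.18 on the log2 scale (edgeR adjusted p = 0.048). Among GRB10's relatives and receptors, 2 of 6 were called, both lower, where 22.8% of all genes were called lower. GRB7, an adaptor of the same family, fell by 1.91 ± 0.26 on the log2 scale (edgeR adjusted p = 0.00107), from 15.2 and 15.1 to 2.93 and 5.12 CPM, while the receptors INSR and IGF1R had log2 fold changes of 0.03 ± 0.14 and -0.21 ± 0.15 and were not called. PHLDA3, a relative of PHLDA2, fell by 1.04 ± 0.16 on the log2 scale (edgeR adjusted p = 0.00184) over all cells, and in pluripotent-like cells rose by 0.73 ± 0.17 (edgeR adjusted p = 0.00373).

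Of the genes that keep imprints, 5 were tested, 2 rose and 1 fell, where 49.9% of all genes were called. ZNF445, a zinc finger protein that binds imprinting control regions, rose by 0.51 ± 0.13 on the log2 scale (edgeR adjusted p = 0.0167), SMCHD1, a chromatin protein, by 0.44 ± 0.14 (edgeR adjusted p = 0.0303), and DPPA3, which shields methylation in the egg and early embryo, fell by 3.34 ± 0.45 (edgeR adjusted p = 0.000924) at a level of 3.06 CPM or less. CTCF, the insulator protein that separates H19 from IGF2, had a log2 fold change of 0.10 ± 0.12 and was not called (edgeR adjusted p = 0.542). Of PEG10's relatives, RTL8B, RTL8C and RTL5 were called higher, where RTL8A, RTL8B and RTL8C are near-identical copies whose reads may have been split. Genes of the 2 lists other than IGF2, DLK1, PLAGL1, SNRPN, CDK6, CCND3, GRB7 and PHLDA3 were singled out for their role after their values had been seen.

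Over the 11 sums of a blastoid library and a cluster with at least 50 cells, the pattern of each member was set beside 3267 genes with a mean of at least 50 CPM. The 11 sums come from 2 libraries and clusters of unequal depth, so Pearson's r is a description. H19 was most like TEAD1 (r = 0.97), LAMA1 (0.96) and MAGED1 (0.96), and IGF2, which is below that level, reached 0.96 with H19. CDKN1C was most like TPT1 (0.98), EIF1 (0.98) and BRI3 (0.96), and PHLDA2 most like SERPINB9 (0.97), CBR1 (0.96) and PGM1 (0.95). PEG10 was most like TMCO1 (0.97), TCEAL9 (0.94) and TCEAL8 (0.91). SGCE was most like SESN3 (0.98), LAMB1 (0.98) and UBL3 (0.98), MEST most like PYURF (0.91), IFT57 (0.88) and IGDCC3 (0.86), and GRB10 was like PPP1R12A (0.91) and THOC1 (0.89). MEG3 has too few UMIs for its pattern to be read. Among the members themselves the closest pair was CDKN1C and SGCE (r = 0.86), while PEG10 and SGCE, which share a start region, reached 0.46. MEST and DLK1 reached 0.83, and H19 and PHLDA2 ran against each other, at -0.79.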

How the data were processed

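Polyadenylated RNA of single cells was measured in 2 hESC and 2 blastoid samples. The libraries were 10x Genomics Chromium 3′ libraries, per the labels' protocols. For every sample the authors deposited a table of UMI counts, not normalized, and Cell Ranger and GRCh38 are named in the submitters' processing notes, without a version. The deposited barcodes had more than 200 genes. Cells with fewer than 500 genes and Scrublet doublet calls (scanpy 1.11.5, expected rate 6%, 27, 3, 11 and 35 barcodes in hESC 1, hESC 2, blastoid 3 and blastoid 4) were left out. The members, lists and tests were chosen with earlier results of these data known.

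Cells of all samples were clustered without batch correction on 2000 variable genes, without the members and listed imprinted genes (30 principal components, 15 neighbours, leidenalg 0.10.2, resolution 0.5), and named by fixed markers, with at least 3 markers in 10% of the cells. Counts were summed per sample and tested with edgeR 4.0.16 (TMM, filterByExpr, quasi-likelihood). The step was tested on simulated data with an assumed spread between samples. Of 100 genes changed 2-fold it recovered 82 over all cells and 49 in pluripotent-like cells. Of 100 genes changed 4-fold it recovered 100 and 89. Beside the members, IGF2 and DLK1, the 4 called genes with the largest change and a mean log2 CPM of at least 3 were named from each list. Intervals of shares (exact Clopper-Pearson) and of levels (exact Poisson) hold counting error alone. Alternatives were DESeq2 1.42.0, other scaling, filters and classes, and each sample left out. Some genes of the lists and of the likeness ranking are not reported here.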

Additional observations from a re-analysis of the deposited data

Results flagged for a closer look

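H19 was also present in the deposited barcodes that the comparisons left out for having fewer than 500 genes. Its level there was 682 CPM in blastoid 3 (310 UMIs) and 746 CPM in blastoid 4 (40 UMIs), against 3.47 CPM in hESC 1 (5 UMIs) and 0 in hESC 2, where the exact upper limit was 2.05 CPM. In blastoid 3 these barcodes lay below the kept cells (1085 CPM). In blastoid 4 their exact interval, 533 to 1016 CPM, held the level of the kept cells (587 CPM). In blastoid 3, 1010 of the 1198 barcodes were the same as a barcode kept in blastoid 4, and the reverse held for none in blastoid 4. In hESC 1, 1284 of 3676 such barcodes were the same as a barcode kept in hESC 2, and in hESC 2, 3 of 4400 were kept in hESC 1. PEG10 in these barcodes was at 449 and 224 CPM in the blastoids, but its interval in blastoid 4 overlapped that of hESC 2.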

How the results depend on the processing

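No paired analysis was possible because the labels give the 2 groups no replicate numbers in common. Of the counts of genes called, the other imprinted genes went from 19 to between 12 and 25 and the partner genes to between 11 and 23 when single samples were left out, with the lone sample of an arm then assumed to vary like the other group. Partner genes past a log2 fold change of 1 numbered 10. The members called over all cells numbered 5 to 7, those called in pluripotent-like cells 3 to 5, those higher in mesoderm/mesenchyme-like cells 3 or 4 and those detected more often in blastoids 6 or 7 over all alternatives. Counted by shares of thinned cells, the members higher in mesoderm/mesenchyme-like cells included PEG10 and not MEG3. MEST in pluripotent-like cells, not called, lay between -0.0073 and 0.17 when single samples were left out, and at -0.12 at resolution 1.0. The cause of this range was not tested. Without scaling factors beyond library size the median change over all genes moved up by 0.13 (log2) and 63.1% rather than 54.3% of calls over all cells were higher, yet the members called over all cells numbered 6. No member called over all cells changed direction under any alternative. MEG3, and IGF2 in pluripotent-like cells, had too few UMIs for a test. Each group had 2 samples.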
